A study of Mus musculus with 24 samples.

Results

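The genes described here are 37 genes that define hepatocyte identity, of the 55487 genes in the deposited count table. They were taken by symbol from a fixed list, and all 37 symbols were found, each once. They comprise 9 carrier and other plasma proteins, 7 genes of lipoproteins and their assembly, 4 genes of fibrinogen and clotting, 3 enzymes of amino acid breakdown, 4 enzymes of the urea cycle, 9 liver transcription factors and 1 bile acid transporter. They were measured in AML-12, an established mouse hepatocyte line derived from the liver of a mouse carrying a transforming growth factor alpha transgene, so that each value comes from 1 line in culture and not from liver. Expression was read by BRB-seq, a method that barcodes RNA samples, pools them and sequences the 3′ end of each mRNA. The 24 libraries formed 6 groups of 4. BSA cells received the albumin carrier alone, and PAL cells received palmitate, a saturated fatty acid, bound to albumin at 0.25 mM for 48 hours. The remaining groups received the same palmitate and, in the last 24 hours, endoribonuclease-prepared small interfering RNA (esiRNA) with lipofectamine. CON cells received 200 nM esiRNA against *Egfp*, BMAL1 cells 100 nM against *Bmal1*, CHREBP cells 100 nM against *Chrebp*, and BOTH cells esiRNA against both genes at 200 nM in total. The single esiRNAs were therefore given at a lower total dose than their control. The steatosis medium had no dexamethasone, and its serum was charcoal-stripped. Whether BSA cells were also kept in it was not stated.

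Hepatocytes secrete most proteins of blood plasma, package lipid into lipoproteins, clear ammonia through the urea cycle and take up bile acids. Their identity is held by a network of transcription factors, among them HNF4A, the FOXA proteins and C/EBP alpha, which bind the promoters and enhancers of liver genes and of each other. Hepatocyte lines in culture are known to keep some of these genes and to lose others.

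Levels are given as CPM, the counts of a gene scaled to a library total of 1000000 gene counts. Library totals ran from 5399700 to 11237474 gene counts, so that 3 counts, the smallest number treated as detectable, were worth 0.267 to 0.556 CPM. *Arntl*, the symbol of *Bmal1* in the table, was at 2.98 to 4.41 CPM in BMAL1 and 2.14 to 4.0 CPM in BOTH against 3.99 to 7.60 CPM in CON. *Mlxipl*, the symbol of *Chrebp*, was at 2.89 to 4.36 CPM in CHREBP and 1.47 to 2.81 CPM in BOTH against 3.84 to 5.83 CPM in CON. Both targeted transcripts were rare, and the ranges overlapped CON for each single esiRNA and, for *Arntl*, in BOTH as well. Per the labels, library column 1 held the groups without esiRNA, column 2 those without *Chrebp* esiRNA (CON with BMAL1) and column 3 those with it. Rows A to D held BSA, CON and CHREBP, and rows E to H the others. Column and *Chrebp* esiRNA, column and transfection, and row and palmitate or *Bmal1* esiRNA cannot be told apart. In a principal component analysis of all libraries, BOTH 4 stood apart from its group on the third component. The counts of the 37 genes called with BOTH are given also without it, and overlaps that this library alone made for called genes are named. The sum of 15 interferon response genes ran between 45.5 and 63.9 CPM without esiRNA (BSA and PAL). It was between 130 and 1046 CPM for CON libraries, between 146 and 222 CPM for BMAL1, between 3237 and 6608 CPM for CHREBP and between 6230 and 10576 CPM for BOTH. The labels do not say that libraries of a group came from separate cultures, so that p-values measure the spread between these libraries, which may be technical.

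Promoter sequence was available from RefSeq for 32 of the 37 genes, as 42 windows from 250 bases before to 50 bases after an annotated start on GRCm38.p6. No window was available for *Ttr*, *Apoc3*, *Trf*, *Cps1* and *Asl*, so that their promoters were not searched for any motif. The stretch of 150 bases just before the start is printed for the 3 genes with the largest called falls under palmitate below, *Fga*, *Fgb* and *Alb*, and for *Ass1*, whose window holds a perfect E-box, a site bound by BMAL1 with its partner CLOCK. The strand is that of the gene, read 5′ to 3′, and capitals mark the motif matches found on either strand.
Alb, chr5:90460720-90460869, + strand: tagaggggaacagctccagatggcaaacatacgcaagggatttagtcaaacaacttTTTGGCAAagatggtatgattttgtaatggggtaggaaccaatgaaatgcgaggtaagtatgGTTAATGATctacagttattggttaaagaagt
Fga, chr3:83026003-83026152, + strand: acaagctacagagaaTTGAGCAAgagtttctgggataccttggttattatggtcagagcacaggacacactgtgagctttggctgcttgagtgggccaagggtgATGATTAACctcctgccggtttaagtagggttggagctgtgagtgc
Fgb, chr3:83049864-83050013, - strand: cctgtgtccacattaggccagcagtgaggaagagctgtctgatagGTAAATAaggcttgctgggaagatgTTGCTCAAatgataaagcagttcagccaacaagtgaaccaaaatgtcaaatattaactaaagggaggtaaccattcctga
Ass1, chr2:31470120-31470269, + strand: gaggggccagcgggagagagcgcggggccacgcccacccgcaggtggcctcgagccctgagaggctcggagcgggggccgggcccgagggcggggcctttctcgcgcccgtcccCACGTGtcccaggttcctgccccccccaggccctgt

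The motifs were searched as letters on both strands, with N for any base, and matches of different motifs were counted separately where they overlapped. In the sequences above, the capitals are the C/EBP letters TTGCNNAA in *Alb*, *Fga* and *Fgb*, the HNF1 letters GTTAATNAT in *Alb* and *Fga*, the FOXA variant TATTTAC in *Fgb* and the E-box CACGTG in *Ass1*. The starts are those of RefSeq. GENCODE, used for gene positions, starts *Fga* at 83026076 and *Ass1* at 31470207, inside the stretches printed. The HNF1 letters of *Fga* and the E-box of *Ass1* lie after these GENCODE starts. The C/EBP letters were in 11 of the 42 windows (26.2%) and in 10.8% of the 32851 windows of all genes. Besides the 3 genes printed, they were in windows of *Afp*, *Apoa2*, *Apob*, *Serpina1a*, *Ahsg*, *Rbp4*, *Nr5a2* and *Slc10a1*. The HNF1 letters were in 4 windows (9.52%), those of *Alb*, *Afp*, *Fga* and *Nr5a2*, and in 0.801% of all windows. The FOXA letters TGTTTAC were in 5 windows (11.9%) against 3.65% of all, and the variant TATTTAC in 3 (7.14%) against 3.04%. The E-box was in 2 windows (4.76%), those of *Ass1* and *Onecut1*, and in 7.15% of all windows. The D-box TTANGTAA, read by the clock output factors DBP, TEF and HLF, was in 1 window (2.38%), that of *Alb*, upstream of the stretch printed, and in 2.32% of all. The interferon-stimulated response element was in 2 windows (4.76%), those of *Vtn* and *Foxa1*, against 3.44% of all. The HNF4 letters CAAAGTCCA were in 0 of the 42 windows and 0.475% of all. These matches are descriptions of letters in a window.

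AML-12 cells expressed a part of the hepatocyte program. A gene was counted as detected where all 4 libraries of at least 1 group held 3 or more counts, and 27 of the 37 genes were detected. All 9 transcription factors were detected, as were 8 of 9 carrier and plasma proteins and 6 of 7 lipoprotein genes. Of the 3 enzymes of amino acid breakdown 0 were detected, and the bile acid transporter was not detected either. With other limits, 22 genes had a median of 10 counts or more and 21 genes had 3 or more counts in every library.

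Plasma carriers were the most abundant genes of the group. Per kilobase of exon, the mean level over the 24 libraries was 478 CPM for *Rbp4*, the retinol carrier, 304 for *Ambp*, the precursor of alpha-1-microglobulin and bikunin, and 271 for *Trf*, the iron carrier transferrin. *Apoe*, the lipoprotein ligand for hepatic receptors, followed at 163 CPM per kilobase, and *Ttr*, the carrier of thyroxine and retinol-binding protein, at 156. *Serpina1a*, an alpha-1-antitrypsin gene, was at 73.3 CPM per kilobase. The transcription factors *Foxa2*, *Hnf4a* and *Foxa3* were at 51.3, 34.8 and 14.5 CPM per kilobase, and *Asl*, a urea cycle enzyme, at 11.5. These 10 genes were also the 10 highest by CPM without division by length, a scale suited to reads of 3′ ends, but in another order. By CPM *Trf* was first, at a mean of 900, before *Rbp4* at 642, *Ambp* at 429, *Apoe* at 349 and *Ttr* at 185. *Hnf4a*, at 168 CPM, was above *Foxa2*, at 122 CPM.

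Albumin itself was expressed at a low level. The mean of *Alb* was 20.8 CPM over the 24 libraries, with 86 to 242 counts per library, at percentile 53.8 of all genes that had at least 25 counts in total. *Trf*, in contrast, was at percentile 99.1, and each of the 8 genes with a mean of 100 CPM or more was at percentile 89.7 or above. *Nr1h4*, the bile acid receptor FXR, was at 25.6 CPM, *Prox1*, a homeobox factor of liver progenitors and hepatocytes, at 23.7, *Foxa1* at 16.5 and *Cebpa* at 10.3 CPM.

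A further set of genes was at 1 to 10 CPM. It held *Vtn*, the adhesion protein vitronectin, at 5.16 CPM, the urea cycle enzyme *Ass1* at 4.53, *Mttp*, which loads lipid onto apolipoprotein B, at 3.96, *Apob* at 3.11, the fibrinogen beta chain *Fgb* at 2.95 and the fetal carrier *Afp* at 2.73 CPM. The nuclear receptor *Nr5a2* and the homeobox factor *Onecut1* were at 1.44 and 1.40 CPM. *Apoa1*, *Apoh*, *Fga* and *Apoa2* were detected at under 1 CPM, with means of 0.998, 0.864, 0.634 and 0.424 CPM.

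The 10 genes not detected are known as products of mature liver. They were the fetuin gene *Ahsg*, *Apoc3*, the fibrinogen gamma chain *Fgg*, the first urea cycle enzyme *Cps1*, the tyrosine and tryptophan enzymes *Tat*, *Tdo2* and *Hpd*, the urea cycle enzyme *Otc*, the bile acid transporter *Slc10a1* and prothrombin, *F2*. Pooled over all 24 libraries they had 54 counts for *Ahsg*, 45 for *Apoc3*, 43 for *Fgg*, 33 for *Cps1*, 29 for *Tat*, 20 for *Tdo2*, 16 for *Otc*, 12 for *Slc10a1*, 4 for *Hpd* and 3 for *F2*. None of the 10 was at 0 in every library, and none had more than 8 counts in any library. Within a pathway the levels were uneven, since *Asl* had 301 to 658 counts per library while *Cps1* and *Otc* had at most 4 and 5. Likewise *Fgb* had 7 to 67 counts per library, *Fga* at most 21 and *Fgg* at most 5, although the 3 chains make 1 protein.

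**Figure D1:**
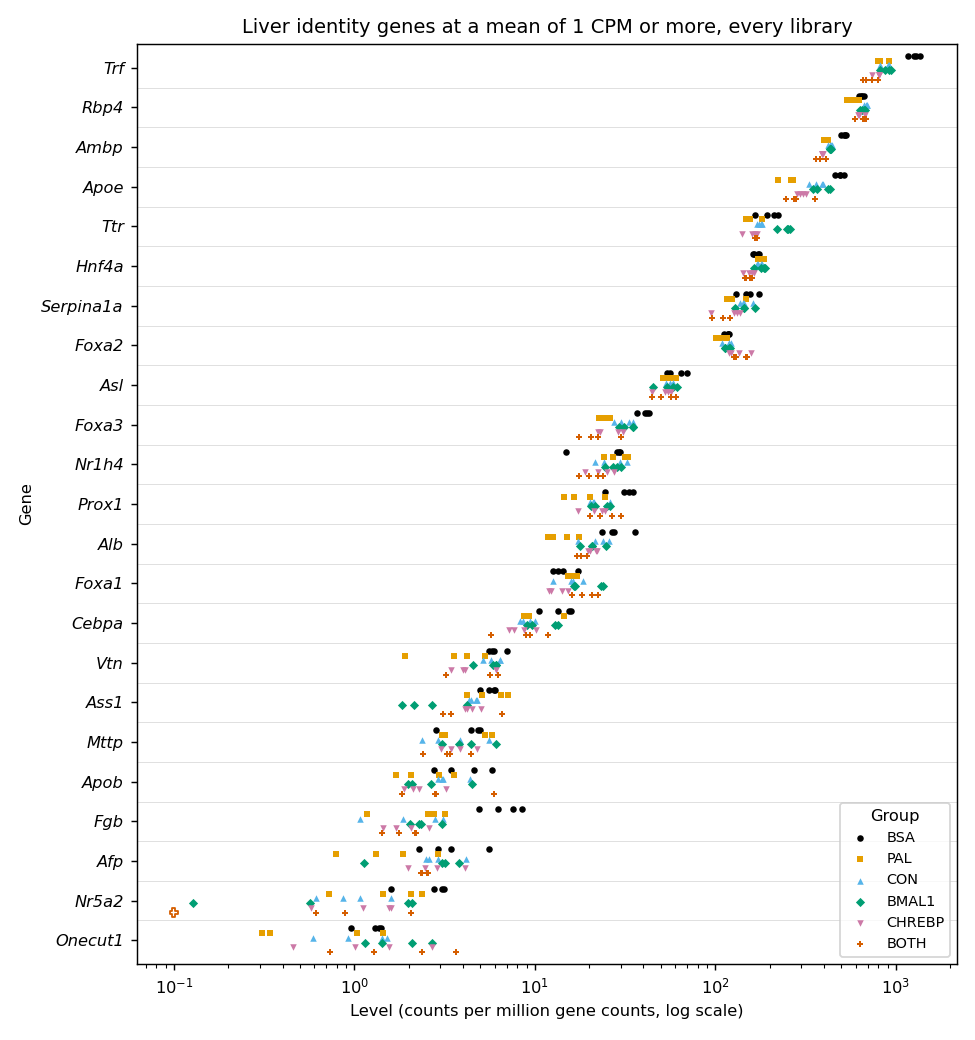
Level of the 23 genes with a mean of 1 CPM or more in each of the 24 libraries (horizontal axis, CPM on a log scale; 1 symbol per library, shaped and coloured by group), with genes ordered by mean. The open symbol at the left edge is 1 BOTH library in which Nr5a2 had 0 counts. Trf was highest, at 657 to 1364 CPM, and BSA libraries stand to the right of the other groups for Trf, Apoe, Ambp, Foxa3 and Fgb.

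Checked against its markers, the line had *Hnf4a*, *Ttr* and *Alb*, while the defining hepatocyte markers *Cps1* and *Slc10a1* were not detected. Of 10 cholangiocyte markers 6 were detected, with *Spp1* at a mean of 1292 CPM, *Krt19* at 346, *Sox9* at 243 and *Krt7* at 47.0 CPM. *Vim* was at 2146 CPM, and 4 of 13 stellate and mesenchymal markers were detected in all. Of the endothelial markers 0 of 8 were detected, and their sum was at most 0.623 CPM in a library. Of 9 immune markers 2 were detected, with sums of 0.963 to 3.79 CPM. In bulk samples, fewer cells of a type and less RNA per cell cannot be told apart.

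The first comparison asked what palmitate changed. PAL was tested against BSA with the DESeq2 Wald test over 12827 genes, and a gene was called at a Benjamini-Hochberg adjusted p (Padj) under 0.1. Of the 37 genes 26 were tested, 11 were lower in PAL and 0 were higher. Over all genes tested, 7.6% were called lower and 6.65% higher. The median log2 fold change was -0.50 over the 26 genes and 0.0048 over all genes. By the unadjusted p, 15 of the 26 genes were under 0.05, all of them lower in PAL, and edgeR called 0 higher. The share of all genes under 0.05 by the unadjusted p was not counted, here or in the other comparisons. The summed level of the 37 genes was 3816 ± 122 CPM in BSA and 2848 ± 123 CPM in PAL (SD, n = 4).

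Most of the abundant plasma carriers fell. *Alb* was at 26.8, 23.6, 27.5 and 35.7 CPM in BSA and at 17.6, 15.1, 12.7 and 11.8 CPM in PAL. Every PAL library was below every BSA library, and the log2 fold change was -0.97 (SE 0.16, Padj 1.04e-07 by DESeq2). *Trf* was at 1162, 1264, 1364 and 1300 CPM in BSA and at 919, 818, 821 and 795 CPM in PAL. The groups did not overlap, and the log2 fold change was -0.58 (SE 0.06, Padj 1.53e-17 by DESeq2). The reads of *Trf* could not be separated from those of the predicted gene *Gm20425*, which overlaps it on the same strand. *Trf* lies at chr9:103204001-103230444.

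The falls of the other carriers that were called were smaller. *Ambp* was at 496, 526, 517 and 533 CPM in BSA and at 423, 411, 399 and 418 CPM in PAL. Its groups were apart, with a log2 fold change of -0.31 (SE 0.05, Padj 2.40e-07 by DESeq2). *Ttr* was at 166, 194, 223 and 211 CPM in BSA and at 156, 150, 181 and 149 CPM in PAL. The ranges of *Ttr* overlapped through the lowest BSA library and the highest PAL library, and the log2 fold change was -0.30 (SE 0.09, Padj 0.0111 by DESeq2).

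*Serpina1a* was at 130, 175, 148 and 156 CPM in BSA and at 148, 116, 124 and 121 CPM in PAL. The groups overlapped, and the log2 fold change was -0.24 (SE 0.09, Padj 0.0818 by DESeq2). *Serpina1a* is 1 of 5 near-identical genes in this table, with 24950 counts of its own and 15857, 4098, 2330 and 346 for *Serpina1b*, *Serpina1c*, *Serpina1d* and *Serpina1e*, so that its count is uncertain. *Rbp4* was at 646, 628, 645 and 667 CPM in BSA and at 622, 550, 538 and 592 CPM in PAL. Its groups did not overlap, but the log2 fold change was only -0.15 (SE 0.06, Padj 0.0819 by DESeq2). The call for *Serpina1a* was lost when any of 5 libraries was left out (BSA 2 and 4, PAL 2, 3 and 4), and that for *Rbp4* when any of 7 was (all but PAL 1). *Serpina1a* was also not called with all 24 libraries in the fit (Padj 0.166). The 2 carriers that were tested and not called were *Vtn*, with a log2 fold change of -0.68 (SE 0.29, Padj 0.121), and *Afp*, with -1.02 (SE 0.42, Padj 0.101).

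Among the lipoprotein genes, *Apoe* alone passed the test, and it had the smallest Padj of the 37 genes. *Apoe* (chr7:19696109-19699188, - strand) was at 513, 489, 463 and 492 CPM in BSA and at 269, 221, 265 and 262 CPM in PAL. The lowest BSA library was far above the highest PAL library, and the log2 fold change was -0.92 (SE 0.07, Padj 2.63e-41 by DESeq2). The mean CPM was 48% lower in PAL. The other 4 genes tested had log2 fold changes of -0.77 (SE 0.58) for *Apoa1*, the main protein of high density lipoprotein, -0.71 (SE 0.35) for *Apob*, the protein of very low density lipoprotein, -0.07 (SE 0.71) for *Apoh* and 0.05 (SE 0.31) for *Mttp*.

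Both fibrinogen chains that were tested fell. *Fgb* was at 4.90, 8.51, 6.26 and 7.59 CPM in BSA and at 2.56, 2.76, 1.18 and 3.19 CPM in PAL. Its groups did not overlap, and the log2 fold change was -1.45 (SE 0.32, Padj 0.000143 by DESeq2). *Fga* ran from 0.456 to 2.53 CPM in BSA and from 0 to 0.721 CPM in PAL, with a log2 fold change of -2.07 (SE 0.73, Padj 0.0439 by DESeq2). The call for *Fga* rested on few counts and was lost when any of 4 libraries was left out (BSA 2 and 3, PAL 2 and 3). These chains lie beside each other on chromosome 3, *Fga* at chr3:83026076-83033627 on the + strand and *Fgb* at chr3:83040141-83049863 on the - strand, and their promoter sequences are among those printed above.

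The urea cycle genes that could be tested did not pass the test. The log2 fold change was -0.08 (SE 0.10, 95% interval -0.28 to 0.12) for *Asl* and 0.03 (SE 0.26, 95% interval -0.47 to 0.53) for *Ass1*.

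The transcription factors divided. *Foxa3*, a forkhead factor of endoderm and liver, was at 40.5, 42.1, 42.7 and 36.9 CPM in BSA and at 26.2, 24.8, 23.1 and 22.6 CPM in PAL. Its groups were far apart, with a log2 fold change of -0.73 (SE 0.11, Padj 8.08e-09 by DESeq2). *Prox1* was at 24.4, 34.8, 33.4 and 31.3 CPM in BSA and at 16.5, 14.6, 20.3 and 24.6 CPM in PAL. The highest PAL library just passed the lowest BSA library, and the log2 fold change was -0.67 (SE 0.16, Padj 0.000515 by DESeq2). Reads of *Prox1* and of *Prox1os*, which overlaps it on the other strand, could not be told apart where strand was not used in counting.

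The other 7 factors were not called. *Hnf4a* was at 163, 172, 162 and 174 CPM in BSA and at 178, 173, 186 and 174 CPM in PAL, ranges that overlapped, with a log2 fold change of 0.10 (SE 0.06, Padj 0.353). *Foxa2* had a log2 fold change of -0.09 (SE 0.07), *Foxa1* 0.15 (SE 0.16) and *Nr1h4* 0.20 (SE 0.17). *Cebpa*, *Nr5a2* and *Onecut1* had values of -0.42 (SE 0.20), -0.69 (SE 0.44) and -0.67 (SE 0.61). For *Hnf4a* and *Foxa2* the 95% intervals, -0.02 to 0.22 and -0.23 to 0.05, were narrow beside the change of *Foxa3*.

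**Figure D2:**
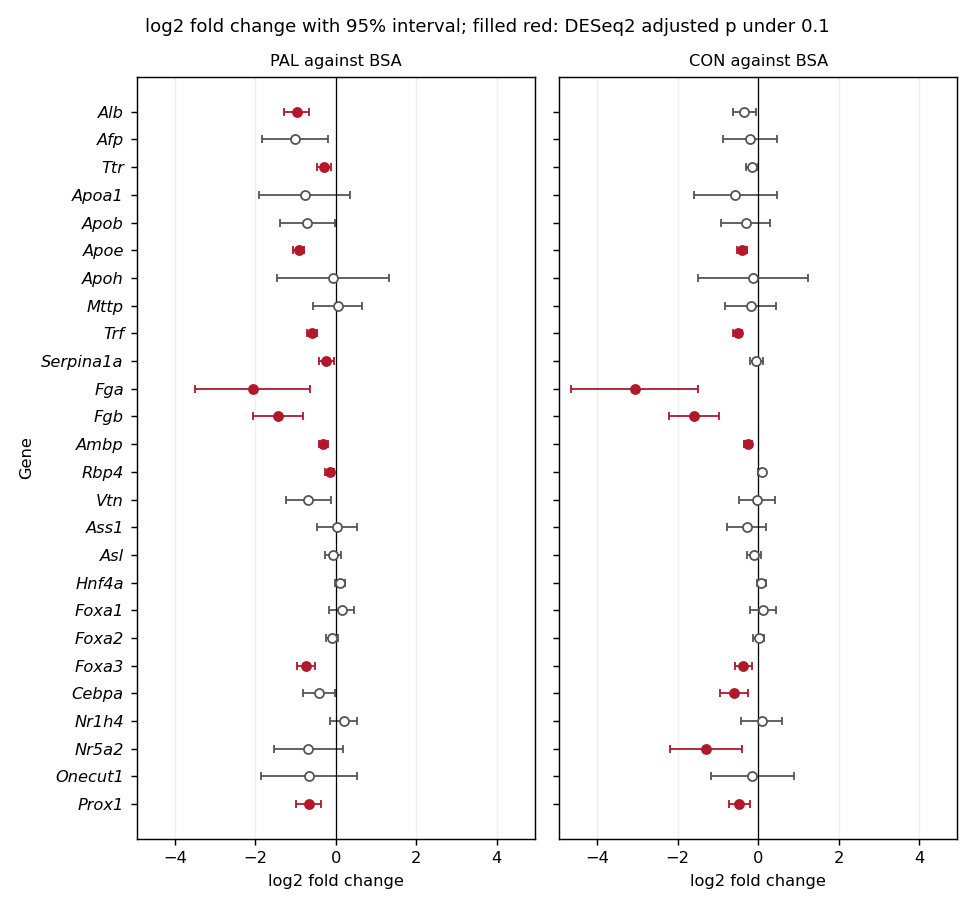
log2 fold change (horizontal axis) of the 26 genes tested in PAL against BSA, with the same genes in CON against BSA at the right, where points are estimates, bars 95% intervals and filled red points DESeq2 calls at Padj under 0.1. In PAL against BSA the 11 called genes all lie left of 0, from -2.07 for Fga to -0.15 for Rbp4, while Hnf4a, Foxa1, Foxa2, Nr1h4, Asl, Ass1, Mttp and Apoh have intervals that span 0.

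Other gene lists moved beside these falls. Of 9 glucocorticoid response genes 8 were tested and 4 were lower in PAL, among them *Lcn2* with a log2 fold change of -5.17, *Mt2* with -0.82 and *Sgk1* with -0.35. The summed level of the list was 978 to 1372 CPM in BSA against 454 to 517 CPM in PAL, and without *Lcn2* it was 534 to 588 CPM against 437 to 505 CPM. *Fkbp5* and *Dusp1*, which were not called, had means of 69.4 and 59.0 CPM in BSA and 73.6 and 67.0 CPM in PAL. *Krt18* and *Krt8*, keratins of simple epithelia, rose by 0.45 and 0.37 on the log2 scale, 2 of 4 genes tested in their list. Of 6 cholangiocyte markers tested, *Krt19* rose by 0.53 and *Spp1* fell by 0.48, with list sums of 2197 to 2372 CPM in BSA and 1848 to 2001 CPM in PAL. The mesenchymal marker *Vim* was higher by 0.14, with 1 of 4 markers called in each direction and list sums of 2025 to 2120 CPM in BSA and 2089 to 2365 CPM in PAL. The part of these lists in the falls was not tested. Of the endothelial markers 0 had enough counts to be tested, of 2 immune markers tested 0 were called, and of 9 interferon genes tested 1 was lower.

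Because BSA and PAL stood in different library rows, CON was also tested against BSA, both in rows A to D, a comparison chosen after the data were seen. CON cells had palmitate but also esiRNA and another column. Of 27 genes tested, 9 were lower in CON and 0 higher, with 7.64% of all genes lower and 7.31% higher. *Apoe* (-0.40), *Trf* (-0.51), *Fga* (-3.07), *Fgb* (-1.59), *Ambp* (-0.25), *Foxa3* (-0.37) and *Prox1* (-0.47), values on the log2 scale, were lower in CON as they were in PAL. *Cebpa* (-0.61) and *Nr5a2* (-1.29) were called in this comparison. *Alb* had a log2 fold change of -0.34 (SE 0.15, Padj 0.115 by DESeq2), *Ttr* -0.16 (SE 0.08, Padj 0.193) and *Serpina1a* -0.05 (SE 0.08, Padj 0.810), none called, and *Rbp4* had the opposite sign, 0.087 (SE 0.04, Padj 0.206). The 2 comparisons share their BSA libraries.

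The transfected control was then compared with palmitate alone. In CON against PAL, 26 of the 37 genes were tested, 3 were higher in CON and 0 lower, against 1.59% of all genes higher and 0.92% lower, and 8 genes were under 0.05 by the unadjusted p. *Alb* was at 17.3, 21.5, 25.9 and 23.8 CPM in CON, with a log2 fold change against PAL of 0.63 (SE 0.16, Padj 0.0105 by DESeq2) and a small overlap of the ranges. *Apoe* was at 396, 330, 359 and 391 CPM in CON, above every PAL library, with a log2 fold change of 0.52 (SE 0.07, Padj 5.61e-10 by DESeq2). Its CON libraries were also below every BSA library. *Rbp4* was at 694, 669, 689 and 685 CPM in CON, above every PAL library, with a log2 fold change of 0.23 (SE 0.05, Padj 0.00205 by DESeq2). *Foxa3*, at 34.8, 27.4, 30.1 and 33.3 CPM in CON, lay between BSA and PAL without overlap, but its test against PAL missed the limit (log2 0.36, SE 0.12, Padj 0.106). Interferon response genes rose beside these, 12 of 13 tested, with a median log2 fold change of 4.74. Of 6 cholangiocyte markers tested 1 was higher in CON, of 4 epithelial genes 1 was lower, and of 8 glucocorticoid response genes 1 was higher and 1 lower. The part of these lists was not tested. Without CON 1, the CON library with the lowest interferon sum, 3 genes were again called, and without PAL 1 there were 5. The call for *Alb* was lost without PAL 4 or without CON 3, which left 2.

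Silencing of *Bmal1* was tested in BMAL1 against CON, fitted with all 16 esiRNA libraries. Of 30 genes tested, *Ttr* was the 1 called higher and 0 were called lower, against 0.166% of all 13883 genes higher and 0.324% lower. DESeq2 gave no Padj to 16 of the 30, whose mean counts were low, so that these could not be called, and genes without a Padj are counted in the shares of all genes too. By the unadjusted p, 3 genes were under 0.05, and edgeR also called 1 higher and 0 lower. *Ttr* was at 175, 182, 170 and 179 CPM in CON and at 260, 220, 252 and 250 CPM in BMAL1. All 4 BMAL1 libraries were above all 4 CON libraries, and above every other library of the series except BSA 3 at 223 CPM. The log2 fold change was 0.46 (SE 0.07, Padj 5.83e-07 by DESeq2), and it was 0.43 to 0.51 whichever of the 8 libraries was left out. The mean CPM was 38.9% higher in BMAL1.

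The other carriers did not pass the test. The log2 fold change was -0.02 (SE 0.05) for *Ambp*, -0.02 (SE 0.07) for *Trf*, -0.07 (SE 0.06) for *Rbp4*, -0.02 (SE 0.11) for *Serpina1a* and -0.09 (SE 0.14) for *Alb*. Among the factors *Hnf4a* had 0.01 (SE 0.06), *Foxa2* -0.02 (SE 0.09), *Foxa3* 0.04 (SE 0.15) and *Foxa1* 0.35 (SE 0.16, Padj 0.593). *Ass1*, whose promoter window holds the E-box printed above, was at 4.75, 4.81, 4.32 and 4.45 CPM in CON and at 2.15, 2.70, 4.19 and 1.84 CPM in BMAL1. The ranges were apart and the log2 fold change was -0.76 (SE 0.31, unadjusted p 0.014 by DESeq2), but no Padj was given, because DESeq2 sets genes of low mean count aside. The likelihood ratio test over the 4 esiRNA groups did not call *Ass1* (Padj 0.315). *Onecut1*, the other member with an E-box in its window, was at 1.11 ± 0.433 CPM in CON and 1.83 ± 0.695 CPM in BMAL1 (SD, n = 4), with overlap and a log2 fold change of 0.67 (SE 0.54, unadjusted p 0.215 by DESeq2). Of the interferon response genes 8 of 15 were lower in BMAL1 than in CON, and their part was not tested.

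*Tat* had too few counts to be tested between pairs of groups and entered the test over all 6 groups alone. Its counts were 4, 3, 1 and 5 in BMAL1 and 5, 0, 1 and 3 in BOTH. They were 1, 0, 0 and 0 in CON, 0, 1, 0 and 0 in CHREBP, 2, 1, 0 and 0 in BSA and 1, 0, 0 and 1 in PAL. Without the filter on low counts, 4 of the genes not detected, *Tat*, *Tdo2*, *Cps1* and *Slc10a1*, were read in the 7 esiRNA comparisons. *Tat* had an unadjusted p of 0.0155 in BMAL1 against CON, 0.0204 in CHREBP against BMAL1, 0.0431 in BOTH against CON and 0.0546 in BOTH against CHREBP, and the 1 Padj that DESeq2 gave *Tat* was 0.30, for CHREBP against BMAL1. The unadjusted p of *Tdo2*, *Cps1* and *Slc10a1* was 0.313 or more in each of the 7. Over all 6 groups that of *Tat* was 0.0273, with no Padj.

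Silencing of *Chrebp* gave no call among these genes. In CHREBP against CON, 0 of 30 genes tested were higher and 0 lower by DESeq2 and by edgeR, against 2.65% of all genes higher and 0.771% lower. No Padj was given to 5 of the 30. By the unadjusted p, 6 genes were under 0.05. *Ambp* was at 391, 389, 397 and 390 CPM in CHREBP against 421 to 443 CPM in CON (log2 -0.13, SE 0.05, Padj 0.146 by DESeq2). *Apoe* was at 293, 285, 307 and 319 CPM against 330 to 396 CPM (log2 -0.28, SE 0.10, Padj 0.126 by DESeq2). *Hnf4a* was at 143, 164, 160 and 154 CPM against 171 to 180 CPM (log2 -0.17, SE 0.06, Padj 0.153 by DESeq2). In these 3 genes, and in *Trf* and *Ttr*, the CHREBP libraries were all below CON, but none of the differences passed the test. The share of all genes that separated in this way was not counted. Counts of 1 to 3 genes lower were obtained by 4 other fits.

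Silencing of both genes gave 6 genes lower and 1 higher than CON among 30 tested, against 3.75% of all genes lower and 5.99% higher, and 3 of the 30 had no Padj. Summed over the 37 genes, the level was 3208 ± 81.0 CPM in CON and 2811 ± 180 CPM in BOTH, with 3274 ± 132 CPM for BMAL1 and 2883 ± 97.8 CPM for CHREBP (SD, n = 4). Without BOTH 4 the sum in BOTH was 2731 ± 104 CPM (SD, n = 3). Of the 6 falls, 4 were in secreted proteins. *Trf* was at 909, 822, 922 and 921 CPM in CON and at 684, 657, 742 and 792 CPM in BOTH. Its groups did not overlap, and the log2 fold change was -0.28 (SE 0.07, Padj 0.00234 by DESeq2).

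*Serpina1a* was at 162, 143, 143 and 136 CPM in CON and at 121, 96.3, 110 and 120 CPM in BOTH, without overlap (log2 -0.35, SE 0.11, Padj 0.0312 by DESeq2). *Ambp* was at 443, 440, 430 and 421 CPM in CON and at 381, 362, 381 and 410 CPM in BOTH, also without overlap (log2 -0.14, SE 0.05, Padj 0.0551 by DESeq2), but its call was lost with edgeR (Padj 0.130) and with only the 2 groups fitted (Padj 0.279). *Apoe* was at 279, 246, 273 and 358 CPM in BOTH, where the highest library, BOTH 4, lay within the CON range (log2 -0.31, SE 0.10, Padj 0.0285 by DESeq2). Without BOTH 4 the log2 fold change of *Apoe* was -0.44. These are falls of 11.5% to 23.4% in the mean level.

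The 3 transcription factors that were called did not change in 1 direction. *Hnf4a* was at 171, 180, 179 and 173 CPM in CON and at 146, 147, 157 and 160 CPM in BOTH, without overlap (log2 -0.17, SE 0.06, Padj 0.0794 by DESeq2), a call that was lost with edgeR (Padj 0.126) and with only the 2 groups fitted (Padj 0.192). *Foxa3* was at 20.5, 17.5, 22.4 and 30.1 CPM in BOTH, where BOTH 4 again lay within the CON range (log2 -0.43, SE 0.15, Padj 0.0526 by DESeq2). Without BOTH 4 the value of *Foxa3* was -0.61, and with only the 2 groups fitted it was not called (Padj 0.119). *Foxa2* was at 122, 108, 119 and 119 CPM in CON and at 130, 150, 127 and 148 CPM in BOTH. Every BOTH library was above every CON library, and the log2 fold change was 0.28 (SE 0.09, Padj 0.0282 by DESeq2). Reads of *Hnf4a* overlap those of *Hnf4aos* and *Gm25881* and are uncertain to that extent.

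The number of genes lower in BOTH than in CON depended on single libraries. It was 1 without BOTH 2, 3 without CON 1, without CON 4 or without BOTH 1, and 7 without BOTH 4, the library that stood apart. The call for *Trf* held under each omission, and *Foxa2* was no longer called without CON 2 or without BOTH 2. All 15 interferon response genes were higher in BOTH and in CHREBP than in CON, with median log2 fold changes of 3.61 and 2.73, and their part in the values of these genes was not tested. Of 6 cholangiocyte markers tested, *Krt7* (-0.49) and *Krt19* (-0.34) were lower in BOTH than in CON on the log2 scale, with list sums of 1680 to 1805 CPM in BOTH against 1814 to 1920 CPM in CON. Of 8 glucocorticoid response genes 3 were higher and 2 lower, *Per1* (0.75), *Dusp1* (0.46) and *Tsc22d3* (0.41) against *Mt2* (-0.71) and *Mt1* (-0.63), with sums of 417 to 473 CPM in BOTH and 522 to 574 CPM in CON. Without BOTH 4 the same counts of these lists were called, 2 lower cholangiocyte markers and 3 higher and 2 lower glucocorticoid response genes. Of 4 mesenchymal and 3 immune markers tested 0 were called. The part of these lists was not tested.

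**Figure D3:**
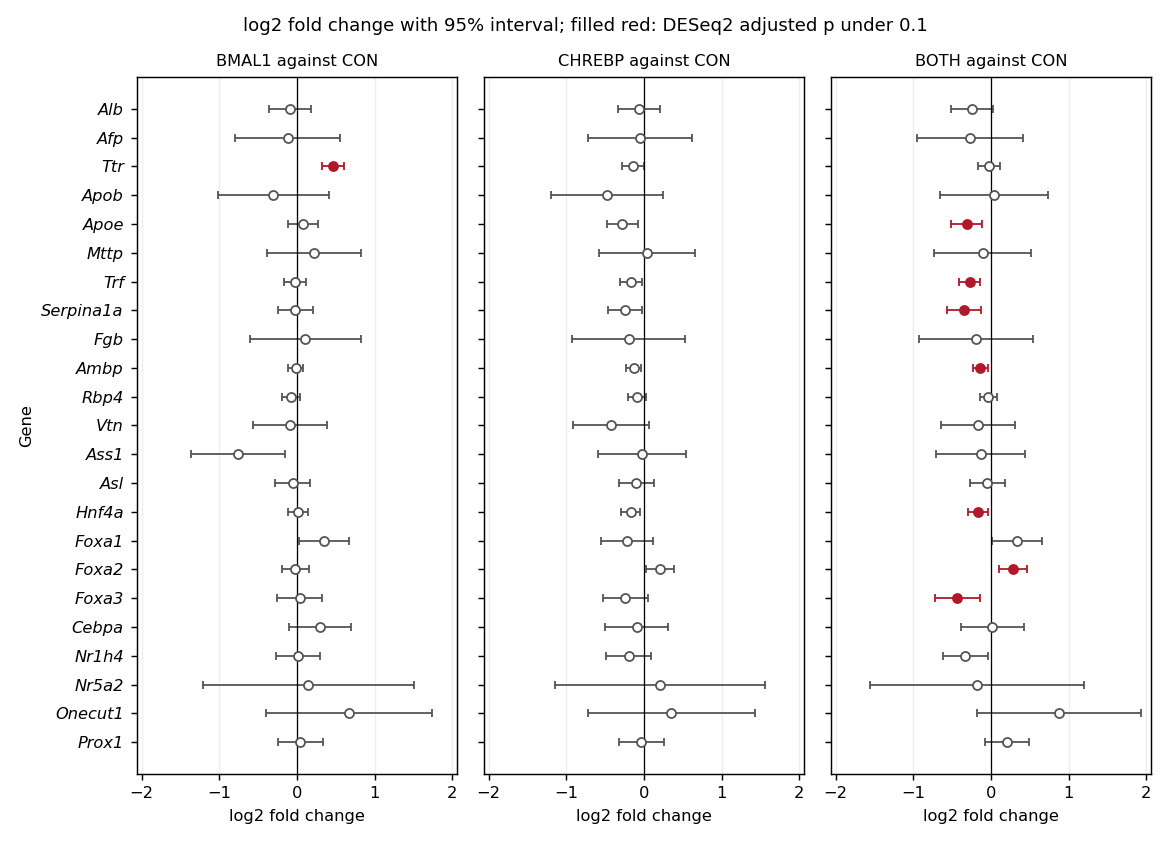
log2 fold change against CON (horizontal axis) of the 23 genes with a mean of 1 CPM or more, for BMAL1, CHREBP and BOTH, with points as estimates, bars as 95% intervals and filled red points as DESeq2 calls at Padj under 0.1. Ttr is the called gene in BMAL1, none is called in CHREBP, and Foxa2 to the right and Apoe, Trf, Serpina1a, Ambp, Hnf4a and Foxa3 to the left are called in BOTH.

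The groups with esiRNA were also compared with each other. In BOTH against BMAL1, 6 genes were lower and 1 higher, against 4.08% and 6.35% of all genes, and 5 of the 30 had no Padj. *Ttr* had a log2 fold change of -0.49 (SE 0.07, Padj 7.51e-10 by DESeq2), and the BOTH libraries, at 168, 171, 167 and 171 CPM, were all below the BMAL1 libraries. The other genes lower in BOTH were *Apoe* (-0.39), *Trf* (-0.25), *Serpina1a* (-0.33), *Hnf4a* (-0.18) and *Foxa3* (-0.47), and *Foxa2* (0.30) was higher, all values on the log2 scale. The ranges of *Apoe* and *Foxa3* overlapped BMAL1 through BOTH 4 alone, at 358 and 30.1 CPM. When 1 library was left out, their log2 fold changes reached as low as -0.52 and -0.65. Without BOTH 2 the number of genes lower was 3, and without BOTH 4 it was 8. The call for *Hnf4a* was lost with only the 2 groups fitted (Padj 0.218) and when any of 5 libraries was left out, and those for *Foxa3* and *Serpina1a* when any of 2 was. All 15 interferon response genes were higher in BOTH than in BMAL1, with a median log2 fold change of 5.69. Of 6 cholangiocyte markers 2 were lower, *Krt19* (-0.32) and *Sox9* (-0.21), and of 8 glucocorticoid response genes *Dusp1* (0.38) was higher and *Mt2* (-0.67) and *Mt1* (-0.55) lower. The part of these lists was not tested.

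In CHREBP against BMAL1, 3 genes were lower and 0 higher, against 0.915% and 2.9% of all genes, and 9 genes were under 0.05 by the unadjusted p. *Ttr* was at 165, 141, 160 and 170 CPM in CHREBP, all below BMAL1, with a log2 fold change of -0.60 (SE 0.07, Padj 1.71e-14 by DESeq2). *Apoe* was at 423, 366, 349 and 434 CPM in BMAL1, above every CHREBP library, with a log2 fold change of -0.36 (SE 0.10, Padj 0.0170 by DESeq2). *Foxa1*, a pioneer factor that opens chromatin at liver genes, was at 16.5, 23.1, 24.0 and 16.8 CPM in BMAL1 and at 14.2, 11.9, 12.4 and 15.3 CPM in CHREBP, without overlap (log2 -0.56, SE 0.17, Padj 0.0298 by DESeq2). The call for *Foxa1* was lost when any of 4 libraries was left out and that for *Apoe* when any of 2 was. All 15 interferon response genes were higher in CHREBP than in BMAL1, with a median log2 fold change of 4.75, as was *Dusp1* (0.35) of 8 glucocorticoid response genes, and their part was not tested.

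In BOTH against CHREBP, *Foxa1* was the 1 gene higher and 0 were lower, against 0.843% and 0.151% of all genes. Of the 30 genes 15 had no Padj and could not be called. *Foxa1* was at 20.6, 18.3, 16 and 22.5 CPM in BOTH, above every CHREBP library, with a log2 fold change of 0.56 (SE 0.17, Padj 0.0726 by DESeq2). That call was absent in 5 of the other fits tried, edgeR among them, and when any of 5 libraries was left out, BOTH 4 among them (log2 0.47). BOTH and CHREBP stood in the same library column, so that column did not differ in this comparison. Of 8 glucocorticoid response genes *Mt2* (-0.65) and *Mt1* (-0.50) were lower, of 15 interferon response genes 0 were called (4 at an unadjusted p under 0.05), with a median log2 fold change of 0.81, and their part was not tested.

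The interaction asked whether the effect of *Bmal1* esiRNA differed with and without *Chrebp* esiRNA. Of 30 genes tested 1 passed, against 0.267% of all genes with a negative interaction, and this gene was *Ttr*. *Bmal1* esiRNA went with a rise of *Ttr* from 177 ± 5.23 to 246 ± 17.4 CPM in the absence of *Chrebp* esiRNA (CON and BMAL1) and with values of 159 ± 12.8 and 169 ± 2.27 CPM in its presence (CHREBP and BOTH; SD, n = 4). The interaction was -0.35 on the log2 scale (SE 0.10, Padj 0.0485 by DESeq2). It was not called by edgeR (Padj 0.141) or with all 24 libraries in the fit (Padj 0.121). Over all genes, 1.2% were called with a positive interaction, and 0 of the 30 were, of which 15 had no Padj and could not be called in either direction. CON and BOTH had 200 nM esiRNA in total and BMAL1 and CHREBP 100 nM, so that the interaction and the total dose cannot be told apart. Of 15 interferon response genes 12 were called with a positive interaction, with a median of 2.90 over the list, and of 8 glucocorticoid response genes *Mt1* had a negative one (-0.42), and their part was not tested. Leaving out any of 8 of the 16 libraries ended the call, with values of -0.41 to -0.31 over all 16, and without BOTH 4 it was kept.

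**Figure D4:**
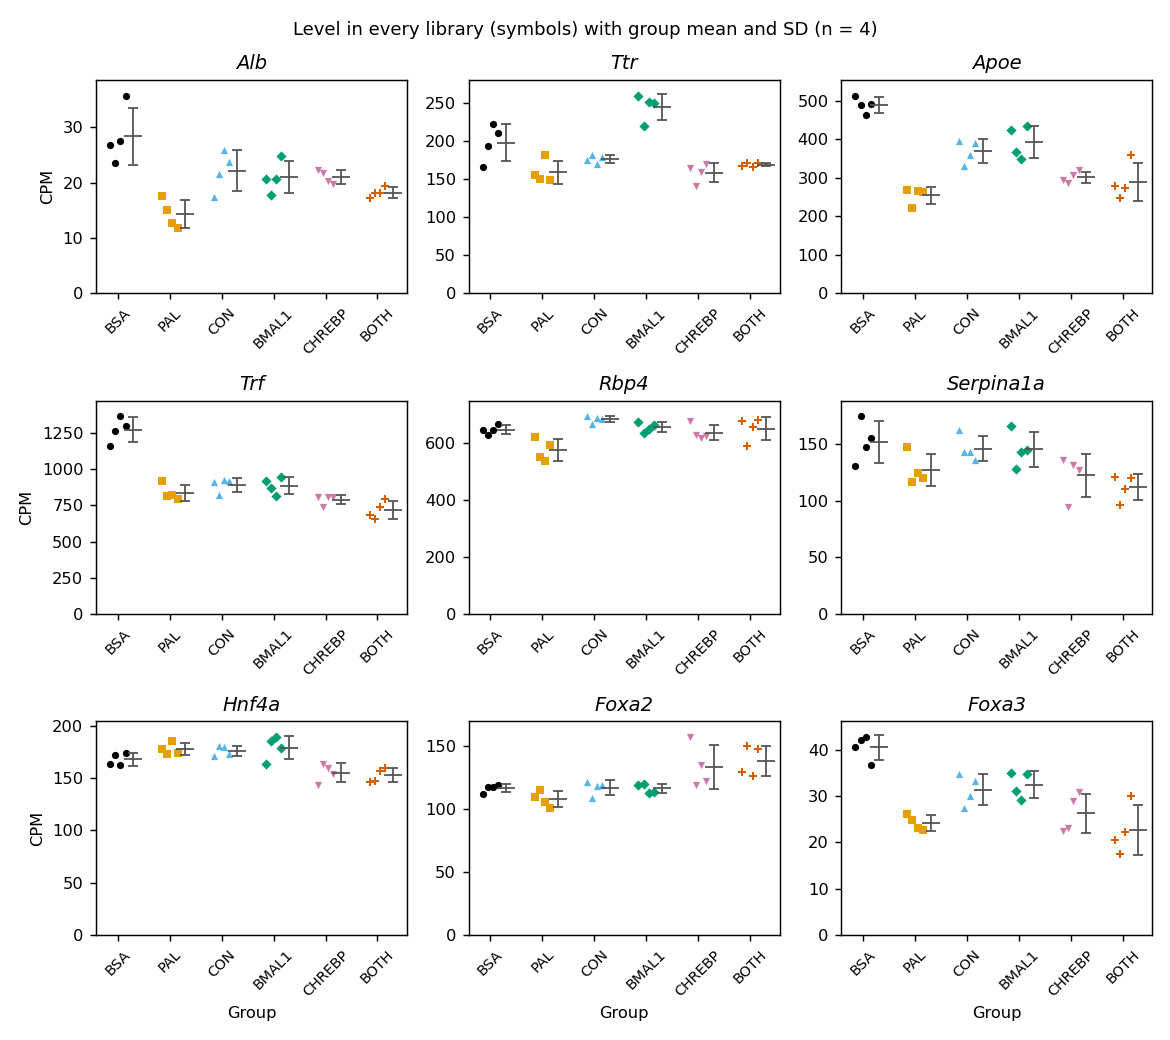
CPM (vertical axis, from 0) of 9 liver genes in the 6 groups, with 1 symbol per library and the group mean with its SD (n = 4) at the right of each group. Ttr is highest in BMAL1 at 246 CPM, Apoe and Trf are highest in BSA, Foxa3 is lowest in BOTH at 22.6 CPM, and Foxa2 has means of 133 CPM in CHREBP and 138 CPM in BOTH beside 108 to 117 CPM in the other groups.

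Over all 6 groups, a likelihood ratio test called 16 of 32 genes tested, against 24.1% of all genes, and over the 4 esiRNA groups it called 9 of 30, against 9.92%. Without BOTH 4 the counts were again 16 and 9. Of the 23 genes whose mean normalized count reached 10, 14 (60.9%) had their highest mean in BSA, 8 (34.8%) their lowest in PAL and 9 (39.1%) their lowest in BOTH. Among all 11367 genes at that level the shares were 25.5%, 18.2% and 29.3%. Without BOTH 4, 10 of the 23 genes (43.5%) and 28.8% of all had their lowest mean in BOTH. Ratios of the highest to the lowest group mean were 1.77 for *Trf* and 1.19 for *Rbp4*. The order of *Apoe* was BSA (489 CPM), BMAL1 (393), CON (369), CHREBP (301), BOTH (289) and PAL (254), in which BMAL1 overlapped CON, CHREBP overlapped BOTH and BOTH overlapped PAL. CHREBP overlapped BOTH through BOTH 4 alone, at 358 CPM. That of *Alb* was BSA (28.4 CPM), CON (22.1), CHREBP (21.0), BMAL1 (21.0), BOTH (18.2) and PAL (14.3), in which each group overlapped the next. In *Foxa3* the order was BSA (40.6 CPM), BMAL1 (32.5), CON (31.4), CHREBP (26.3), PAL (24.2) and BOTH (22.6), in which BSA was apart and each of the others overlapped the next, PAL and BOTH through BOTH 4 alone, at 30.1 CPM.

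Other hepatocyte genes, from lists written with earlier results of these data known, were read in the same fits. Of 45 further plasma protein genes 24 were tested in PAL against BSA, and 10 were lower and 0 higher, beside 7.6% of all genes lower and 6.65% higher in this comparison. They included *Agt*, the precursor of angiotensin, with a log2 fold change of -1.36, the pentraxin *Apcs* with -0.92 and the vitamin D carrier *Gc* with -0.54. Of 23 further liver transcription factors 19 were tested, with 3 lower, *Cebpb* (-0.70), *Klf15* (-0.63) and *Rxra* (-0.28), and 0 higher. Of 25 surface, bile acid and cytochrome P450 genes 10 were tested, with 4 lower, among them *Abcc2* (-0.58), *Cyp27a1* (-0.49) and *Ghr* (-0.26), and 0 higher. Enzymes of amino acids and the urea cycle went both ways, with 4 lower and 2 higher of 14 tested, among them *Gls2* (-1.33) falling and *Glul* (0.37) and *Cth* (0.36) rising. Of 3 fetal liver genes tested 1 was higher, *Hmga2* (0.43).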

How the data were processed

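Total RNA of AML-12 cells was read by BRB-seq. The authors aligned the reads to mouse genome mm10 with STAR and deposited raw whole-number counts per gene and library, with HTSeq and featureCounts named as counters. Versions, annotation, use of strand and handling of unique molecular identifiers were not given in the sources used here, and the floor of 3 counts is for counting error alone, whereas the 95% intervals are DESeq2 Wald intervals that include the spread between libraries. Beside 55487 genes there were 5 summary lines, which stayed out of totals and tests, and between 24.9% and 28.0% of a library's reads were in the line for reads not aligned and 5.11% to 6.47% in that for reads in no gene. All 24 columns were used.

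The 37 genes, the other lists and the tests were chosen with earlier results of these data known. Each gene's own counts were tested with DESeq2 1.42.0 in R 4.3.3 (Wald test, Padj under 0.1, summed count of at least 25). PAL with BSA and CON with PAL were fitted as 8 libraries each, and the esiRNA groups and their interaction as 16. Likelihood ratio tests used 16 and 24 libraries. The alternatives were edgeR 4.0.16 (quasi-likelihood, TMM), TMM size factors, no filter, a summed count of 100, no independent filtering, a replicate block, other sets of libraries and leaving out each library. The scripts were tested on simulated counts. Replicates within a group differed by more than sampling noise, with a chi-square per degree of freedom of 2.69 to 23.1 over 36 pairs. Called genes whose mean normalized count reached 10 are given for every library, and genes of other lists where called with a mean of 50 or more, up to 3 in each direction. Replicate numbers did not pair libraries, because no comparison had a correlation of deviations above 0.1 in every pair. Gene positions and overlaps came from GENCODE M21 on GRCm38, and promoters from RefSeq on GRCm38.p6.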

Additional observations from a re-analysis of the deposited data

Results flagged for a closer look

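In 9 of 138 groups (23 genes in 6 groups of 4 libraries, 6.52%), 1 library lay far from the other 3 beside the range of the group. Chance alone flags about 1 in 20 groups. *Apob* was at 4.39 CPM in CON 1 and at 2.92 to 3.11 CPM in the other CON libraries. *Apoe* was at 221 CPM in PAL 2 against 262 to 269 CPM in the other PAL libraries. *Trf* was at 822 CPM in CON 2 against 909 to 922 CPM, and at 742 CPM in CHREBP 2 against 805 to 807 CPM. *Rbp4* was at 678 CPM in CHREBP 1 against 619 to 627 CPM. *Vtn* was at 4.53 CPM in BMAL1 4 against 5.84 to 6.11 CPM. *Ass1* was at 6.61 CPM in BOTH 4 against 3.09 to 3.42 CPM. *Cebpa* was at 14.5 CPM in PAL 1 against 8.67 to 9.27 CPM. *Nr1h4* was at 14.9 CPM in BSA 3 against 28.5 to 29.7 CPM.

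The effect of *Bmal1* esiRNA on *Ttr* differed with and without *Chrebp* esiRNA, by an interaction of -0.35 on the log2 scale (SE 0.10, DESeq2 Padj 0.0485), a call that edgeR, the fit of all 24 libraries and 8 of 16 omissions of 1 library did not keep. The total dose of esiRNA follows the same contrast and cannot be told apart from it.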

How the results depend on the processing

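The counts of genes called in PAL against BSA, CON against PAL, BMAL1 against CON, CHREBP against BMAL1, BOTH against BMAL1 and both likelihood ratio tests stayed within 1.5 times their values under each alternative fit. In CHREBP against CON the number lower went from 0 to 1 without the filter on low counts, 2 with the replicate block, 3 with all 24 libraries and 2 with only the 2 groups fitted. In BOTH against CON the number lower went from 6 to 3 with only the 2 groups fitted, where *Ambp*, *Hnf4a* and *Foxa3* were not called. The 1 gene higher in BOTH against CHREBP, *Foxa1*, became 0 with edgeR, without the filter, without independent filtering, with the replicate block and with only the 2 groups fitted. The 1 interaction, *Ttr*, became 0 with edgeR and with all 24 libraries. In CON against BSA, added after seeing the data, *Rbp4* changed sign to 0.087. In each case the cause was not tested.

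Same-numbered libraries did not deviate together, so that the numbers are not a pairing. With them as a block, genes lower in PAL against BSA were 8 in place of 11 (without *Serpina1a*, Padj 0.533, *Fga*, 0.133, and *Rbp4*, 0.139) and genes higher in CON against PAL 2 in place of 3 (without *Alb*, Padj 0.130), *Ambp* was not called in BOTH against CON (Padj 0.112), and over the esiRNA groups 8 in place of 9 were called.

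When 1 library was left out in turn, the number lower in PAL against BSA was 8 to 14, higher in CON against PAL 2 to 5, lower in BOTH against CON 1 to 7 and higher 0 to 1, higher in BOTH against CHREBP 0 to 1, lower in BOTH against BMAL1 3 to 8 and higher 1 to 2, lower in CHREBP against BMAL1 2 to 3 and higher 0 to 1, lower in CHREBP against CON 0 to 1, and in the interaction 0 to 1. Of 280 such values for single genes, 69 lost their call and 0 changed sign. In BOTH against CON, *Ambp* lost it without any library but CON 4 and BOTH 4, *Hnf4a* without CON 2, 3 or 4 or BOTH 1 or 2, *Foxa3* without CON 1 or 4 or BOTH 1, 2 or 3, *Apoe* without CON 1 or 4 or BOTH 2, and *Serpina1a* without CON 1 or BOTH 2. *Alb* in CON against PAL lost it without PAL 4 or CON 3. In BOTH against BMAL1, *Hnf4a* lost it without BMAL1 2, 3 or 4 or BOTH 1 or 2, *Foxa3* without BMAL1 4 or BOTH 2, and *Serpina1a* without BMAL1 1 or BOTH 2. In CHREBP against BMAL1, *Apoe* lost it without BMAL1 1 or 4, and *Foxa1* without BMAL1 2 or 3 or CHREBP 2 or 3. The interaction of *Ttr* lost it without CON 1 or 3, BMAL1 1, 3 or 4, or CHREBP 1, 3 or 4. Genes under 1 CPM had too few counts for changes of moderate size to be seen.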

Other observations

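The other lists of liver genes were read in the esiRNA comparisons, where the share of all genes called was 0.166% higher and 0.324% lower in BMAL1 against CON, 2.65% and 0.771% in CHREBP against CON, and 5.99% and 3.75% in BOTH against CON. In BMAL1 against CON, 0 of 27 further plasma protein genes, 0 of 17 amino acid and urea cycle enzymes and 0 of 10 surface, bile acid and P450 genes were called by DESeq2, but 18 of the 27, 9 of the 17 and 2 of the 10 had no Padj and could not be called. Of 21 further liver factors tested 1 was lower, *Klf15* (log2 -0.53, Padj 0.0881), and 7 had no Padj. In CHREBP against CON, *Agt* was the 1 plasma protein gene called of 27 (log2 -0.52, Padj 0.00874). Of 21 factors 3 were higher and 1 lower, among them *Cebpb* (0.32) and *Atf5* (0.39) higher and *Klf15* (-0.45) lower. In BOTH against CON, *Hpx* (0.20) and *Gc* (0.27) were higher and *Agt* (-0.36) lower among the plasma protein genes. Of 21 factors 3 were again higher and 1 lower, among them *Cebpb* (0.42) and *Hhex* (0.40) higher and *Klf15* (-0.39) lower. Without BOTH 4, 3 plasma protein genes were higher and 0 lower, and 2 factors higher and 0 lower, so that *Agt* (-0.29, Padj 0.249) and *Klf15* (-0.35, Padj 0.198) were no longer called. Among fetal liver genes, *Hmga2* was lower in BMAL1 than in CON (-0.43, Padj 0.0827), the 1 gene called of 3, of which 1 had no Padj. In BOTH against CON, the glucose transporter *Slc2a2* (-0.47) was the 1 gene called of 10 surface, bile acid and P450 genes and among 17 enzymes *Gls2* (-0.67) was lower and *Got1* (0.30) higher, calls that were kept without BOTH 4. In CHREBP against CON, *Krt7* (-0.32) was lower and *Dusp1* (0.42) higher, the 1 cholangiocyte marker and the 1 glucocorticoid response gene called. In CON against PAL, where 1.59% of all genes were called higher and 0.92% lower, 0 of 22 plasma protein genes and 0 of 20 factors were called (2 and 4 at an unadjusted p under 0.05). Of 13 enzymes 1 was higher and 1 lower, the latter *Cth* (-0.58), and of 10 surface, bile acid and P450 genes *Abcc2* (0.81) was higher. Of 6 cholangiocyte markers *Sox9* (0.20) was higher, of 4 epithelial genes *Krt18* (-0.15) was lower, and of 8 glucocorticoid response genes *Mt1* (0.49) was higher and *Dusp1* (-0.38) lower. All values are log2 fold changes from DESeq2, called at Padj under 0.1.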
